A study of Oryza sativa with 2 samples.

Results

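TCP genes are plant transcription factor genes, and those described here are the ones that the deposited table pairs with a small RNA of the miR319 or miR159 family. They were chosen by the small RNA name together with a symbol that starts with PCF or TCP or a description that names TCP, without use of read values, and GAM1, a GAMYB gene, was left out. The rule gave 6 pairings of small RNA and transcript, of 25653 in the table. They lay on 3 transcripts of 3 genes, PCF7, PCF5 and PCF6, of 823 genes with a cleavage site, and each gene had 1 listed transcript version and 1 cleavage position with reads.

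The study sequenced degradomes, the 5′ ends of uncapped RNA fragments, from rice mesocotyls of the indica cultivar P25. The mesocotyl is the seedling axis between the grain and the coleoptile. In the light library (L_1h) the seedlings had 1 h of light after 5 days of darkness, and in the dark library (D_5d) they had 5 days of darkness and no light. Both sets of seedlings were raised at one temperature on Murashige and Skoog medium. There was 1 library per condition, so no replicate spread can be given, and the table holds cleavage reads only, so the tissue could not be checked against marker genes. How many plants went into a library was not stated. The library totals inferred from the deposited values were 34051452 reads in the light library and 15422946 in the dark library, and 1 read that matches 1 place was worth 29.4 TPB in the light library and 64.8 TPB in the dark library. TPB is the authors' unit, reads over the library total times a fixed number.

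In plants, miR319 guides ARGONAUTE to the messenger RNAs of the CIN-like TCP factors, the class II members that limit cell division and promote differentiation in leaves and other growing organs. A matched messenger is sliced between the bases opposite positions 10 and 11 of the small RNA, and the 3′ piece keeps a free 5′ end that degradome sequencing reads. miR159 is close to miR319 in sequence, and in Arabidopsis it mainly controls GAMYB genes. In rice, PCF5, PCF6 and PCF7 are class II TCP genes, and raised miR319 gives wider leaf blades. PCF5 and PCF6 are among the miR319 targets linked to cold tolerance of rice seedlings.

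The sequences show how close the families are and which of them pairs with the TCP genes. Capitals mark the seed, bases 2 to 8, the letters are those of the deposited table, and the first line is the small RNA that pairs with all 3 genes.
osa-miR319a-3p.2-3p_R+1: tTGGACTGaagggtgctccct
osa-miR159c_R-1, also listed as osa-miR159d_R-1 and osa-miR159e_R-1: aTTGGATTgaagggagctcc
bdi-miR319b-5p: aGAGCTCTcttcagtccactc
osa-MIR319b-p5: aGAGCGTCcttcagtccactc

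The miR159 variant starts 1 base further 5′ than the miR319a variant. Over the 19 bases they share in that alignment 17 are identical, and the 2 differences are C6T and T14A, with positions counted from 1 at the 5′ end of the miR319a variant and the base of miR159 given last. The first of them lies in the miR319 seed. The other small RNAs with miR319 in their name, printed above as the last lines, come from the opposite arm by their names and were paired with no TCP gene. They had 18 and 5 pairs in the table, none of which had reads.

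All 3 cuts were paired with miR319 and none with miR159. The miR319a variant of 21 bases paired with 3 TCP transcripts, and all 3 pairs had reads in both libraries, which 31% of the genes with a site had. On PCF7, transcript ZS01t0619100-01, it paired over positions 1063 to 1082 with an alignment score of 3, and the reads started at position 1073. On PCF5, transcript ZS01t0115600-01, it paired over positions 1588 to 1607, again with a score of 3, and the reads started at position 1598. On PCF6, transcript ZS03t0729400-01, it paired over positions 850 to 869 with a score of 1.5, and the reads started at position 860. The score is a penalty for mispairing and runs from 0 to 4 in the table, so PCF6 was the best paired of the 3 genes. Positions are counted along the transcript, since no source names a genome build. Each listed range spanned 20 transcript bases, and its 3′ end was taken to lie opposite base 1 of the small RNA. Counted in this way the read start lay opposite base 10 of the miR319a variant in all 3 genes, as in 2999 of the 3262 pairs with reads. All other pairs with reads had the read start opposite base 9 (103 pairs) or base 11 (160 pairs). The listing thus holds these positions only, although no such requirement was stated, so this is no test of cutting.

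The remaining 3 pairs were the 3 miR159 names on PCF6, which carry 1 sequence. They covered positions 851 to 870 with a score of 3.5, and the table lists them without reads. In this register the position opposite base 10 of miR159 is 861, and position 860, where the PCF6 reads started, lies opposite base 11. Among the 105 miR159 pairs with reads elsewhere in the table, 98 had the read start opposite base 10 and 4 opposite base 11. If the table lists every position that has a read, the absence of a read at 861 allows up to 88.1 TPB in the light library and 195 TPB in the dark library, a floor of 3 reads per library. PCF7 and PCF5 had no miR159 pair, and the 3 transcripts had no pair with any other small RNA.

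The GAM1 gene ZS01g0670800, with which both families pair, had most of its reads at the other position, the one paired with miR159. On GAM1 transcript ZS01t0670800-01 the position paired with miR159, 1269, had 105 reads in the light library and 50 in the dark library. The position paired with the miR319a variant, 1268, had 5 reads in the light library and 1 in the dark library at a score of 4. The reads on PCF6 thus started at the miR319 position and most of those on this GAM1 transcript at the miR159 position, 1 base apart in either pairing. The miR319a variant had 13 pairs in all, on 6 genes, and reads on 4 of them, which were the 3 TCP genes and this GAM1 gene.

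Fragments of all 3 TCP genes were the leading cuts of their transcripts in both libraries. Each site was in category 0 in the light library and in the dark library. In common use this category means that no other position on the transcript has as many reads. Category 0 in both libraries was reached by 41 of 823 genes, 4.98%. Larger shares were found among genes paired with other conserved miRNAs, with 5 of 8 GRF genes paired with miR396 (62.5%) and 2 of 5 NAC genes paired with miR164 (40%). The miR319 or miR159 targets that are no TCP gene reached category 0 in both libraries in 4 of 21 genes (19%). For these lists a site of any small RNA on the gene was counted. The authors' deposited p-values for the cut were 0.00532 in the light library and 0.00463 in the dark library for PCF7. The deposited values for PCF5 were the same as for PCF7, although its reads were fewer, and its score and category were those of PCF7. For PCF6 the deposited p-values were 0.00355 in the light library and 0.00309 in the dark library. A site below 0.05 in both libraries in the authors' deposited table was found for 4.86% of genes.

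PCF7 gave the most fragments and PCF6 the fewest. PCF7 had 155 reads in the light library, 4552 TPB with an exact 95% Poisson interval of 3864 to 5328, and 44 reads in the dark library, 2853 TPB with an interval of 2073 to 3830. PCF5 had 71 reads in the light library, 2085 TPB (1628 to 2630), and 20 in the dark library, 1297 TPB (792 to 2003). PCF6 had 20 reads in the light library, 587 TPB (359 to 907), and 8 in the dark library, 519 TPB (224 to 1022). The light library was the higher one for each gene. On the authors' scale the light and dark intervals of PCF7 lay narrowly apart, at 3864 and 3830 TPB, whereas those of PCF5 and of PCF6 overlapped. How many of all genes show such a gap was not counted. With the sums over shared sites set equal, as given below, the ratio interval of PCF7 was 0.837 to 1.68 and includes 1. The reads of each site matched 1 place, so raw and normalized reads were equal. Intervals and floors cover counting error only, because the reads were amplified by PCR and carry no molecular identifier, and are not separate molecules.

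**Figure D1:**
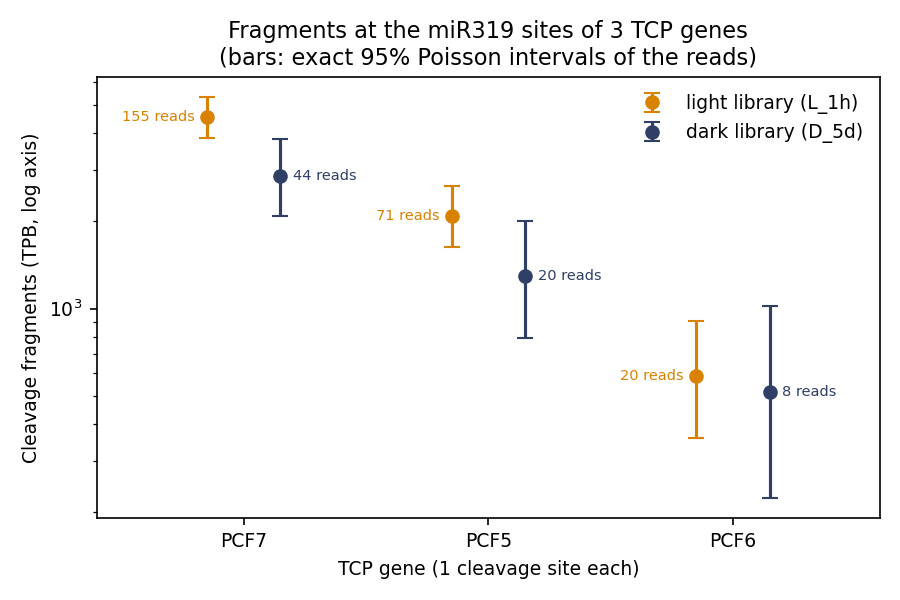
Fragments at the miR319 site of PCF7, PCF5 and PCF6 in TPB on a log axis, with the light library left of the dark library and the raw reads beside each point. Bars are exact 95% Poisson intervals. PCF7 lies highest and PCF6 lowest in both libraries, from 4552 to 587 TPB in the light library and from 2853 to 519 TPB in the dark library.

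The order of the 3 genes was the same in both libraries and wider than the counting error between neighbours. These are reads at single positions, so they need no scaling for transcript length. PCF7 had 2.18 times the reads of PCF5 in the light library (95% counting interval 1.64 to 2.93) and 2.2 times in the dark library (1.27 to 3.94). PCF5 had 3.55 times the reads of PCF6 in the light library (2.14 to 6.16) and 2.5 times in the dark library (1.05 to 6.56), where the interval comes close to 1. The order did not follow the alignment score, since the best paired gene, PCF6, had the fewest reads. With 3 genes this is a description.

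Among all genes with cleavage reads the TCP genes ranked in the upper part. PCF7 was 16th of 665 genes in the light library and 20th of 413 in the dark library by TPB summed over a gene. PCF5 ranked 30 in the light library and 36 in the dark library, and PCF6 ranked 55 and 64. The median site in the table had 2 raw reads in either library, so even the 8 dark reads of PCF6 were above it. Together the 3 sites held 1.47% of the TPB at all sites of the light library and 1.31% of that of the dark library.

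**Figure D2:**
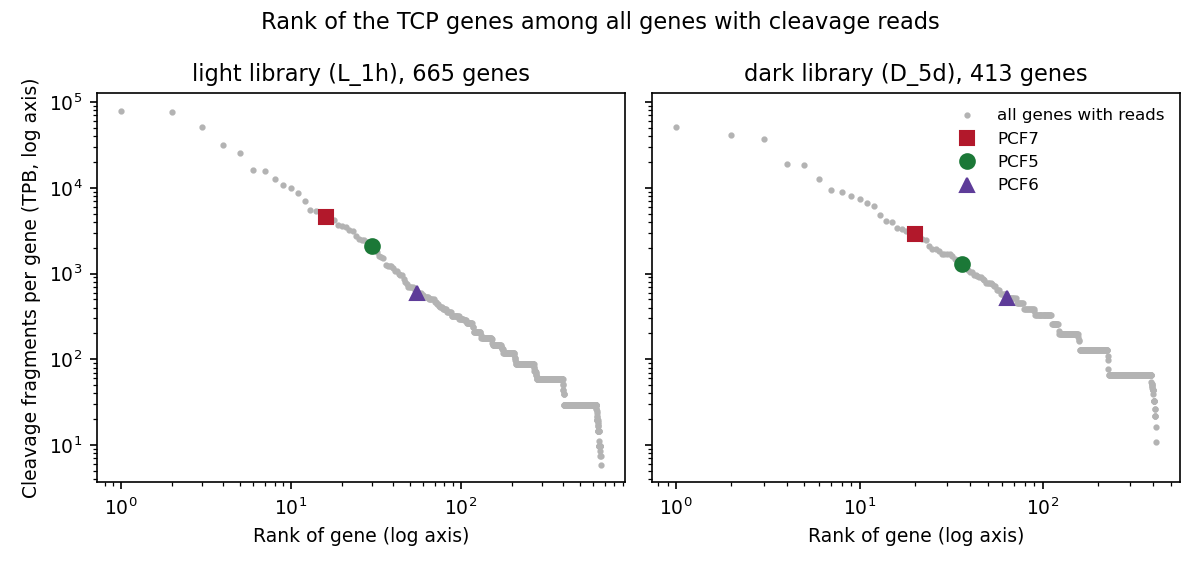
TPB per gene against the rank of the gene, both on log axes, for 665 genes of the light library on the left and 413 genes of the dark library on the right. Grey points are all genes with reads, and the coloured marks are PCF7, PCF5 and PCF6, at ranks 16, 30 and 55 on the left and 20, 36 and 64 on the right.

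The comparison of the libraries asked whether TCP fragments differed after 1 h of light, and none of the 3 genes was called. A gene was called when its ratio of TPB, light over dark, was at least 2-fold and its exact 95% counting interval left out 1. By this rule 0 of 3 TCP genes passed in either direction, and over all 823 genes 3.28% passed as higher and 2.31% as lower. A count of 0 among 3 genes is near these shares. With a fold limit of 1.5, PCF7 alone of the 3 was called higher, and so were 3.65% of all genes, with 2.55% lower. The ratio compares the libraries and not the conditions, and has no replicate check.

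PCF7 fragments stood at 1.60 times their dark level in the light library, with an interval of 1.14 to 2.28. At equal abundance its 44 dark reads would correspond to 97.1 reads in the deeper light library, and 155 were found. The interval lies above 1 and includes 2. PCF5 stood at 1.61, with an interval of 0.968 to 2.79 that includes 1. Its 20 dark reads would correspond to 44.2 light reads, against 71 found. PCF6 stood at 1.13 (0.478 to 2.97), with 17.7 light reads at equal abundance against 20 found. This interval reaches from under 0.5 to above 2, so a 2-fold difference in either direction was not detectable at this depth. Summed over the 3 sites there were 246 light and 72 dark reads, 7224 and 4668 TPB, a ratio of 1.55 (1.19 to 2.04) to which PCF7 gave the largest part. That interval holds for the authors' scale, and the sum was not rescaled. With the sums over shared sites set equal, as given below, the interval of each of the 3 genes includes 1.

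The ratios of the 3 genes did not differ from each other beyond counting error. The ratio of PCF7 was 0.992 times that of PCF5, with a conditional exact interval of 0.515 to 1.87. The ratio of PCF7 was 1.41 times that of PCF6 (0.501 to 3.62), and that of PCF5 was 1.42 times that of PCF6 (0.467 to 4.01). These intervals are wide, and they do not show that the genes behaved alike. Cutting by miR319, the amount of uncut TCP messenger and the decay of the fragments cannot be told apart from these reads, nor can fewer cells that hold a transcript and less of it per cell.

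**Figure D3:**
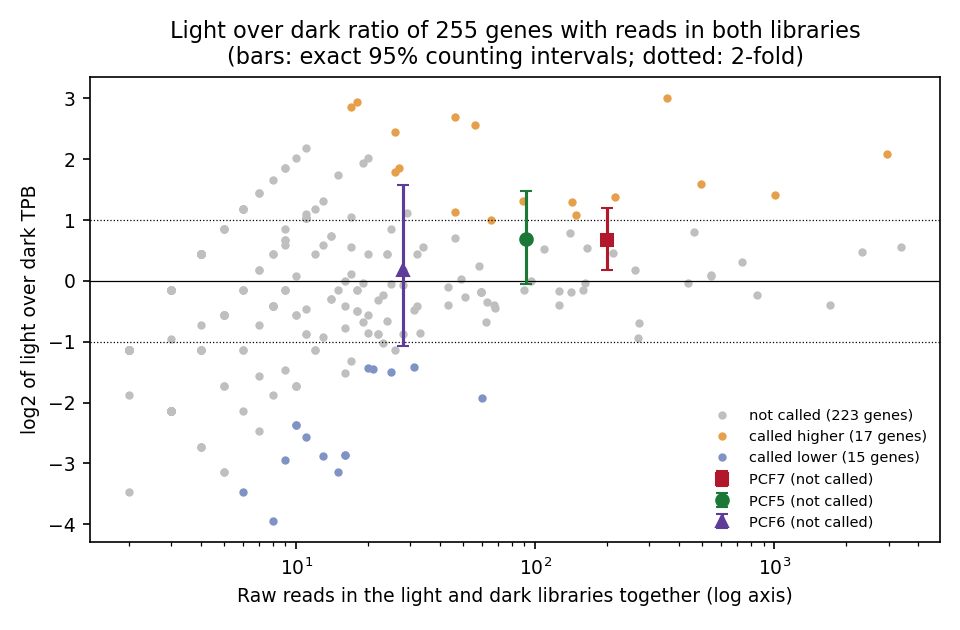
The log2 ratio of light over dark TPB against raw reads in both libraries together (log axis) for the 255 genes with reads in both. PCF7, PCF5 and PCF6 have exact 95% counting intervals and lie above 0 and below the 2-fold line, at ratios of 1.60, 1.61 and 1.13, and only the interval of PCF7 stays above 0.

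The TCP ratios stood above the median of all genes. Of the 255 genes with reads in both libraries 95 had a ratio above 1 and 160 below 1, with a median of 0.883, and the median of the 3 TCP genes was 1.60. To be counted here a gene needed a read in the shallower dark library, and 1 read in each library gives a ratio of 0.453. The median of all genes thus depends in part on genes with few reads. The TCP ratios were not compared with genes of like read number. A median above that of all genes was also found in the lists described below. It was 2.13 for 5 NAC genes, 1.36 for 9 targets of miR319 or miR159 that are no TCP gene, and 0.956 for 7 GRF genes. A larger ratio than that of PCF5 was found in 50 of the 255 genes, than that of PCF7 in 51 and than that of PCF6 in 88. How far the ratios stood from 1 depended on the scaling between the libraries. The 692 sites with reads in both libraries had a median ratio of 0.883 on the authors' scale and a ratio of sums of 1.36. Each transcript version counts as its own site here, so genes with several versions weigh more in this median. The sums give most weight to genes with many reads. Of these, ZS07g0470600 had 78323 light and 18479 dark TPB, and ARF8 went the other way, at 31381 and 41321. Neither scaling was recomputed without such genes. With the median of the 692 sites set to 1, PCF7 stood at 1.81 (1.29 to 2.59), PCF5 at 1.82 (1.10 to 3.16) and PCF6 at 1.28 (0.541 to 3.37). With their sums set equal, PCF7 stood at 1.18 (0.837 to 1.68), PCF5 at 1.19 (0.714 to 2.06) and PCF6 on the other side of 1 at 0.835 (0.352 to 2.19). No TCP gene was called under any of the 3 scalings. Over all genes 27 were called higher and 19 lower on the authors' scale, 29 and 17 with the median and 12 and 44 with the sum.

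**Figure D4:**
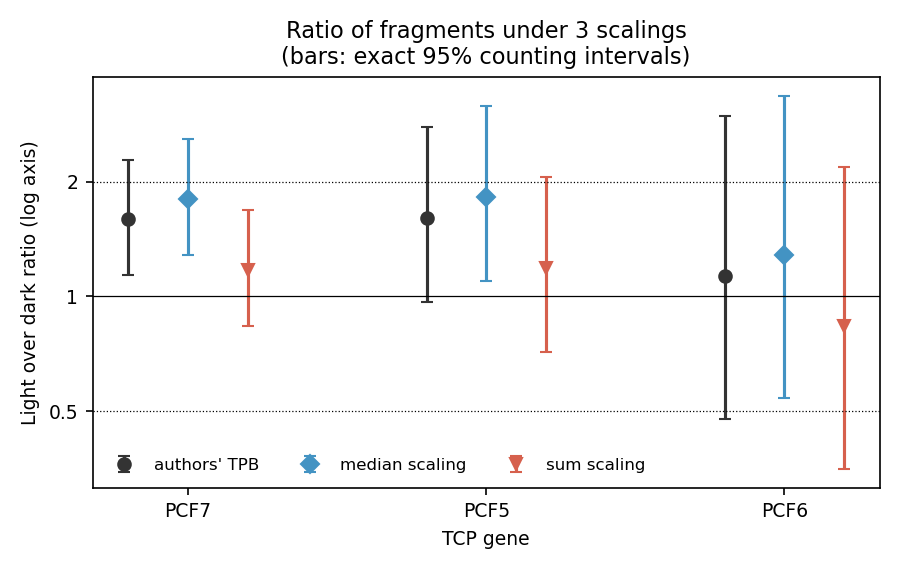
Light over dark ratio of PCF7, PCF5 and PCF6 (log axis) under the authors' TPB, the median scaling and the sum scaling, with exact 95% counting intervals. Dotted lines mark 0.5 and 2. All points lie between them, and the intervals of PCF7 and PCF5 include 1 with the sum scaling.

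The authors' deposited table gives very small p-values between the libraries for PCF7 and PCF5, where the counting intervals come close to 1 or include it. Its log2 fold change has the dark library on top, the reverse of the ratios above, and reads -0.67 for PCF7, -0.69 for PCF5 and -0.18 for PCF6. The authors' deposited chi-square p-values are 3.487e-29 for PCF7, 6.9083e-15 for PCF5 and 0.205 for PCF6. A chi-square test without continuity correction on TPB taken as if it were counts, with the TPB summed over all pairs of the table as library totals, gave 3.487e-29, 6.908e-15 and 0.205. Over the 3192 pairs whose deposited value in the authors' deposited table is above 0, all 3192 were matched in this way within 0.1%. One read of the dark library enters that test as 64.8 counts and one of the light library as 29.4, and the totals count a site once for each small RNA that pairs with it. These p-values were therefore not used to call a gene.

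The genes that other small RNA families link to TCP factors gave the following counts, by the same call, which over all 823 genes passed 3.28% as higher and 2.31% as lower, or 12 genes as higher and 44 as lower with the sum scaling. In Arabidopsis, TCP factors activate MIR396, which silences growth-promoting GRF genes, and MIR164, which silences NAC genes of organ boundaries. A gene entered a list by its pair with the named miRNA, but its reads and call include sites of any small RNA on it. Of 8 GRF genes with a miR396 pair and a site, 3 were called higher and none lower, and 1 and none with the sum scaling. The GRF list went both ways, with 3 of the 7 genes that had reads in both libraries above 1, 4 below 1 and a median ratio of 0.956. GRF5 had 120 light and 22 dark reads, a ratio of 2.47 (1.56 to 4.09). GRF10 stood at 0.895 (0.610 to 1.33), GRF3 at 1.45 (0.921 to 2.34) and GRF8 at 0.732 (0.438 to 1.24). Of 5 NAC genes with a miR164 pair and a site, 2 were called higher and 1 lower, and none and 1 with the sum scaling. The NAC021 copy ZS06g0612500, with 186 light and 74 dark reads, stood at 1.14 (0.865 to 1.51) and was not called. The copy ZS12g0491700, with 184 light and 32 dark reads, was called higher, with a ratio interval of 1.78 to 3.92. NAC100, with 122 light and 26 dark reads, was called higher at 2.13 (1.38 to 3.38). The NAC021 copy ZS08g0123100, with 14 light and 17 dark reads, was called lower at 0.373 (0.170 to 0.804). The NAC021 copies thus did not share a direction. The miR319 or miR159 targets that are no TCP gene numbered 114, of which 21 had a site of any small RNA. Of these, 2 were called higher and none lower, and 1 and none with the sum scaling. GAM1 ZS01g0670800, with 110 light and 51 dark reads, stood at 0.977 (0.695 to 1.39). MPK8, with 24 light and 3 dark reads, was called higher at 3.62 (1.10 to 18.8). The GAM1 genes ZS06g0528400 and ZS06g0527600 each stood at 0.544 (0.215 to 1.40) and were not called. Each had 12 light and 10 dark reads, at 176 and 324 TPB, which is less than such reads give when they match 1 place. Both genes may therefore share the same reads, and they are not separate results although the list counts both. Whether the TCP genes and these lists differ was not tested.

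The deposited annotation describes the 3 genes in nearly the same words. Each has 11 gene ontology terms, of which 10 are shared, among them leaf morphogenesis, leaf development and cell differentiation. PCF5 and PCF7 carry a term for embryo development, and PCF6 instead carries negative regulation of cell proliferation. Each symbol matched 1 RefSeq gene of the japonica assembly ASM3414082v1 through its synonyms, LOC4325137 for PCF7, LOC4325252 for PCF5 and LOC4334346 for PCF6.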

How the data were processed

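The deposited table lists, per the file headers, raw read counts at the cleavage position, with a blank for no read. Normalized reads are a signal the authors made by dividing reads by matching places, and TPB is a signal that equals these times 1 constant per library, as the deposited values show. The inverse of that constant gave the library totals. The authors also deposited p-values and, per the file headers, an alignment score and a category for each pair. No source used here names the aligner, the target finder or the build. Columns that name a dark library of 1 h were read as D_5d, the only dark sample, and their normalized reads times 1 constant are the D_5d TPB. A total of 20 columns of sample values in the other sheets were not used.

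TPB was summed over a gene's versions and positions. Ratio intervals are exact Clopper-Pearson intervals at 95% of raw reads, scaled by library totals, computed with scipy 1.17.1 in Python 3.11.15. They were tried on simulated independent Poisson counts, the model they assume. That trial checks the code and does not cover PCR amplification. No test between conditions was made, and p-values between libraries are the authors' or a recomputation of theirs. Alternatives were the median and sum scalings, raw reads, the single largest site, a fold limit of 1.5, at least 3 reads, miR319 pairs only and a score of 3 or less. All member genes are named, and lists get up to 4 examples by reads. Members and lists were chosen with earlier results of these data known.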

Additional observations from a re-analysis of the deposited data

How the results depend on the processing

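Of 26 recomputed values for 7 results, 25 stayed within the counting interval of the value reported or gave the same count. This is a weak check, because several settings could not change the values and a ratio can cross 1 within its interval. The exception was the fold limit of 1.5, with which 1 TCP gene, PCF7, was called higher in the light library, against 3.65% of all genes called higher at that limit. Raw reads and the single largest site gave the same ratios, because each gene had 1 site whose reads matched 1 place. The sum scaling took PCF6 to the other side of 1, at 0.835, and the interval of PCF7 to 0.837 to 1.68, while with the median scaling the interval of PCF5, 1.10 to 3.16, lay above 1. All 3 genes had reads in both libraries with at least 3 reads, with miR319 pairs only and with a score of 3 or less. These settings could not change the count, since each site with reads was a miR319 pair with such a score and had at least 8 reads. No paired analysis was possible because each condition has 1 library. Depth limits PCF6 most, with 20 light and 8 dark reads.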

Other observations

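The other TCP genes in the table were paired with small RNAs of other families. They numbered 11, with 39 pairs, and were looked up after the data were seen. Reads were listed for 1 of the 11 genes, against 823 of 9660 genes in the whole table, so the share of genes is not low for this table. By pairs it was 9 of 39 (23.1%), against 12.7% of all pairs. These 9 pairs all lie on 1 gene and repeat the same reads, so the share of pairs says little. PCF1, a class I factor that in rice binds the promoter of the cell cycle gene PCNA, was the 1 gene with reads, 1 in the light library and 2 in the dark library at position 325. These reads were listed on 9 transcript versions with a variant named for MIR396h, in category 4 in the light library and 2 in the dark library, at a deposited p-value of 1 in both. PCF2, the PCF3 genes, the TCP20 genes, TCP21 and the TCP5 genes had pairs without reads. PCF8, a class II gene that is a known miR319 target in rice, was listed with a miR5150 variant only, at a score of 4 and without reads.

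The miR319a variant also paired at a score of 0 with ZS01t0122200-01, a transcript with no symbol or description in the table, which had no listed read. The opposite-arm small RNA osa-MIR319b-p5 paired with the same transcript, also at a score of 0 and without reads.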
